A study of Drosophila melanogaster with 11 samples.

Results

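The interaction of nicotine with the paraquat response was measured in fly heads on all 11 of the 11 arrays of the series, as the paraquat difference in flies kept on nicotine minus the paraquat difference in flies without nicotine. Each array held RNA of 20 pooled heads of adult female Drosophila melanogaster of the white-eyed laboratory strain w1118, collected as newly emerged adults, so all groups share that genotype, sex and age. Joint-exposure flies were pretreated for 10 days on nicotine at 0.1 mg/ml and then ate 5 mM paraquat with the same nicotine for 6 days (n = 3 arrays). Nicotine flies ate 0.1 mg/ml nicotine with no paraquat for all 16 days (n = 3). Paraquat flies ate food without nicotine and received 5 mM paraquat for the last 6 days (n = 2, replicates 2 and 3, because the submitters left out 1 degraded replicate). Plain-food flies received neither compound for 16 days (n = 3). The labels call the pools biological replicates without saying whether they came from separate cultures, so p-values measure the spread between these pools only.

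Paraquat is a herbicide that is reduced inside cells and passes its electron to oxygen, which makes superoxide. In flies it induces detoxification enzymes and glutathione transferases and is used to model damage to dopamine neurons. Nicotine opens nicotinic acetylcholine receptors, the main excitatory receptors of the insect brain, and is itself detoxified by cytochrome P450 enzymes. The comparison asked whether prior and continued nicotine altered what paraquat did to the head transcriptome. Expression values are log2, so an interaction of 0 means that paraquat multiplied a transcript's level by the same factor with and without nicotine. A value of 1 or -1 means that the factors differed by a further doubling or halving.

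Of 18952 probe sets, 183 Affymetrix controls and those that reached log2 4 on fewer than 2 arrays were dropped, which left 9104 to test. Over the full table the arrays correlated with the others at a mean of 0.985 to 0.991, apart from joint replicate 1 at 0.977, whose median was 3.30 against 2.88 to 2.99 on the others. The 3' minus 5' difference of the control probe sets, a sign of RNA quality, was 6.70 in plain-food replicate 3 and 8.44 to 9.58 on the other arrays. Head markers were at high levels throughout. Arr2, a photoreceptor arrestin, lay between 15.57 and 15.88, the photoreceptor channel gene trp between 13.54 and 14.72, and the neuronal RNA-binding protein gene elav between 11.14 and 11.93. Results that rest on joint replicate 1 are given with and without it.

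No transcript departed from additivity at the threshold used. The interaction was called at an adjusted p below 0.05 (limma, Benjamini-Hochberg over the 9104 probe sets) for 0 probe sets, or 0%, and the smallest adjusted p was 0.9997. At an unadjusted p below 0.05 there were 112 probe sets (1.23%), of which 33 were above 0 (0.362%) and 79 below 0 (0.868%), and 10 had a p below 0.01. The 1.23% lies below the share of 0.05 that evenly spread p-values would give. The precision was limited by the number of arrays and by the spread between them. The standard error of an interaction had a median of 0.40, and the 95% interval reached a median of 0.89 to either side of the estimate (quartiles 0.68 and 1.25). The whole interval lay within 1 log2 unit of 0 for 3494 probe sets (38.4%). For the other probe sets an interaction of a doubling or a halving lies inside the interval or beyond it, so these arrays do not show that paraquat acted alike with and without nicotine there. The interaction was above 0 in 44.2% of probe sets. The point estimate exceeded 1 in size for 454 probe sets and 2 for 98. The count of 0 was also obtained without each of 8 of the 11 arrays. It was 21 without joint replicate 3 (18 above 0, among them the protease genes Jon99Ci and Jon25Bi), 2 without nicotine replicate 2, and 1 without joint replicate 1. Jon99Ci and Jon25Bi reached log2 4 only on joint replicates 1 and 2, so they were tested only through those arrays.

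Among probe sets called higher in either paraquat contrast, the median responses with and without nicotine were close. Picking on 1 contrast favours a larger value in that contrast. With nicotine 41 probe sets were called (0.45%), 36 higher and 5 lower under paraquat. Without nicotine 31 were called (0.341%), 27 higher and 4 lower. These contrasts share no array, but their tests share 1 estimate of the spread from all 11 arrays. Their p-values are therefore not independent, and the shared calls below are a description. Both counts moved with single arrays, over 12 to 242 with nicotine (lowest without nicotine replicate 1, highest without joint replicate 2) and 0 to 103 without nicotine (0 without paraquat replicate 3, which leaves 1 paraquat array, and 103 without joint replicate 2). All 41 called with nicotine had the same sign without it and an unadjusted p below 0.05 there (10.5% of all tested), and 24 of them (58.5%) were called in both. For the 36 higher ones the median difference was 2.67 with nicotine and 2.51 without. Of the 31 called without nicotine, all had the same sign with it, 30 had an unadjusted p below 0.05 there (11.5% of all tested), and the same 24 (77.4%) were called in both. For the 27 higher ones the median was 2.70 with nicotine and 2.98 without. Across all 9104 probe sets the sign was shared by 6086 (66.8%), and the Pearson correlation of the contrasts was 0.545 and Spearman's 0.493, as a description across probe sets of 1 set of arrays.

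**Figure D1:**
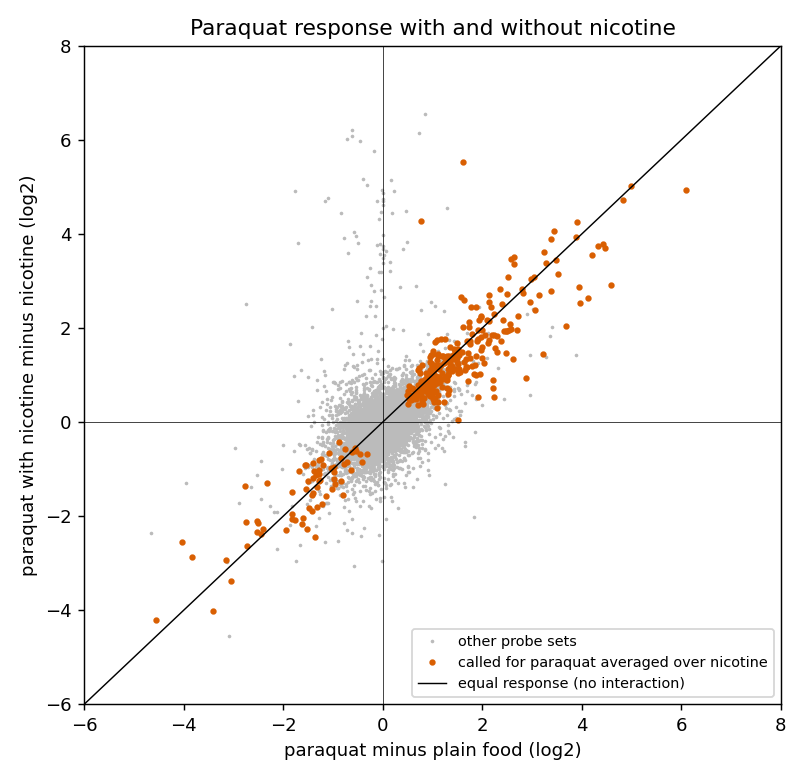
Each point is 1 of the 9104 probe sets, with the paraquat difference without nicotine (log2) on the x axis and with nicotine (log2) on the y axis. Points on the diagonal have an interaction of 0. The 336 probe sets called for paraquat averaged over nicotine are in orange. All of them have 1 sign on both axes, which picking them on the mean of both favours in advance. They include points far from the diagonal, such as CG31104 with an interaction of 3.92. A column of probe sets near 0 on the x axis and above 3 on the y axis includes digestive genes.

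Averaged over nicotine, paraquat called 336 probe sets (3.69%), 267 higher (2.93%) and 69 lower (0.758%), and 53 without paraquat replicate 3 to 586 without joint replicate 2. Each of the 336 had the same sign with and without nicotine, which picking them on the mean of those differences favours in advance. The 267 had a median difference of 1.22 with nicotine and 1.32 without, and a median interaction of -0.09. The response was larger without nicotine in 165 of them (61.8%), and the interaction opposed the averaged paraquat difference in 52.2% of all probe sets. The 69 lower ones had a median of -1.33 with nicotine and -1.38 without, and a median interaction of 0.03. The response was larger without nicotine in 37 of these (53.6%). Among the 267 and the 69, 11 and 2 had an interaction p below 0.05, and for 79 and 11 the whole interval lay within 1 log2 unit of 0. Over all 9104 probe sets tested, 112 (1.23%) had such a p and 3494 (38.4%) such an interval.

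Among the 6 rises of smallest p were AOX1, Cyp6d2 and Alr, and in each of the 6 the interval of the interaction included 0. AOX1, an aldehyde oxidase, had 13.18, 13.83 and 13.45 in joint-exposure heads, 10.14, 10.40 and 9.76 in nicotine heads, 13.70 and 13.84 in paraquat heads, and 10.41, 10.10 and 10.94 in plain-food heads. The paraquat groups did not overlap the groups without paraquat. AOX1 rose by 3.39 ± 0.27 (SE) with nicotine (limma adjusted p = 0.00127) and by 3.29 ± 0.30 without (0.0055), and its interaction was 0.10 with a 95% interval of -0.792 to 0.999. Cyp6d2, a cytochrome P450, had 12.97, 12.41 and 13.81 in joint-exposure heads, 8.44, 8.92 and 7.66 in nicotine heads, 13.06 and 13.64 in paraquat heads, and 9.19, 7.97 and 8.44 in plain-food heads. Its rise was 4.73 ± 0.45 with nicotine and 4.82 ± 0.51 without, and the interaction was -0.09 (-1.62 to 1.44), an interval that leaves room for a difference of more than a doubling. Alr, a sulfhydryl oxidase of the mitochondrial intermembrane space, gave the narrowest of these intervals. It rose by 1.43 ± 0.17 with nicotine and 1.45 ± 0.19 without, and the interaction was -0.02 (-0.58 to 0.54). CG31288 and CG16898, which belong to the ecdysteroid kinase-like family of putative detoxifying kinases, rose with and without nicotine, with interactions of -0.57 (-1.87 to 0.72) and 0.62 (-0.63 to 1.87). CG31296 rose by 3.35 ± 0.22 with nicotine (adjusted p = 0.000477) and by 2.65 ± 0.24 without (0.0055), and its interaction of 0.71 had an interval of -0.03 to 1.44.

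Among the falls of smallest p, the interaction was between -0.14 and 0.19 for 5 of 6. Odc2, an ornithine decarboxylase of polyamine synthesis, had 5.41, 6.60 and 5.21 in joint-exposure heads, 8.17, 8.32 and 7.88 in nicotine heads, 4.77 and 4.07 in paraquat heads, and 6.60, 7.44 and 6.55 in plain-food heads. Averaged over nicotine it fell by 2.41 (limma adjusted p = 0.00326), and the interaction was 0.06 (-1.26 to 1.38). Odc2 was higher in the nicotine groups than in the matched groups without nicotine, by 1.32 with paraquat and 1.26 without, neither of which was called. Hpd, which degrades the tyrosine product 4-hydroxyphenylpyruvate, averaged 12.06 ± 0.48 in joint-exposure heads, 13.61 ± 0.10 in nicotine heads, 11.82 ± 0.41 in paraquat heads and 13.24 ± 0.22 in plain-food heads (SD). Its interaction was -0.14 (-1.005 to 0.733). The cytochrome P450 Cyp313a1 had an interaction of 0.14 (-1.03 to 1.30), nompA, which links the cilia of mechanosensory neurons to the cuticle, one of 0.19 (-1.38 to 1.76), and CG13833 one of -0.11 (-0.89 to 0.67). The sixth was Obp56h, which is also among the 12 negative interactions of smallest p.

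**Figure D2:**
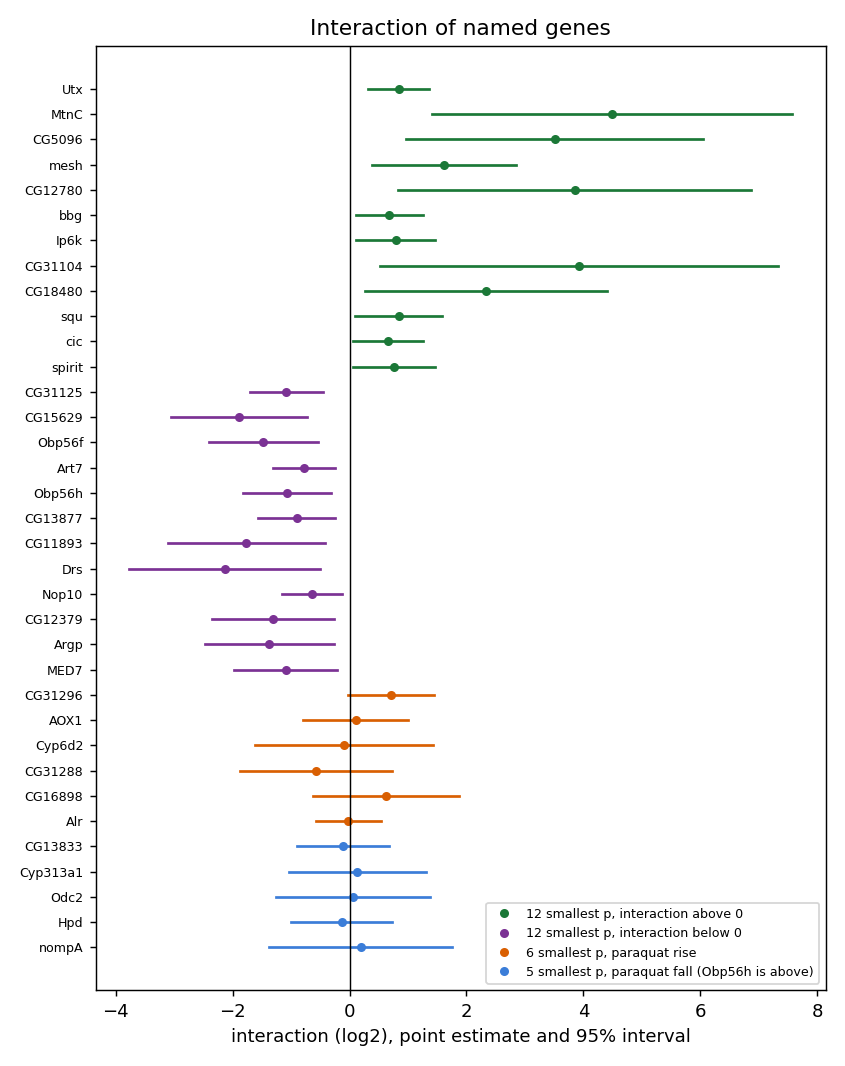
Interaction (log2, x axis) of named genes, as the point estimate and its 95% interval from the limma fit to 11 arrays. The 24 genes at the top were picked as the smallest unadjusted p on either side of 0, so their distance from 0 is a description, and their adjusted p was 0.9997. The 11 genes below, picked for their averaged paraquat response, have intervals that include 0.

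Odorant-binding proteins are small secreted carriers of antennal and mouthpart fluid. Obp56h had 9.97, 9.67 and 10.17 in joint-exposure heads, 12.24, 12.09 and 12.79 in nicotine heads, 10.28 and 10.01 in paraquat heads, and 11.44, 11.72 and 11.38 in plain-food heads. All the paraquat-fed heads lay below all the others, and nicotine heads lay above plain-food heads with no overlap. Averaged over nicotine Obp56h fell by 1.90 (limma adjusted p = 0.000871). The difference was -2.44 ± 0.22 with nicotine, which was called (0.00247), and -1.37 ± 0.25 without, which was not (0.0572). The interaction was -1.07 (-1.82 to -0.32, unadjusted p = 0.01, adjusted p = 0.9997). It lay between -1.21 and -0.87 when each array was left out in turn. Set against each other by nicotine, Obp56h differed by -0.21 between joint-exposure and paraquat heads and by 0.86 between nicotine and plain-food heads, neither of which was called. Obp56f had 5.38, 5.80 and 5.26 in joint-exposure heads, 6.47, 6.24 and 6.61 in nicotine heads, 5.46 and 6.10 in paraquat heads, and 5.68, 5.36 and 4.76 in plain-food heads. Its interaction was -1.48 (-2.40 to -0.55). Of 30 measured odorant-binding genes, 4 had an interaction above 0 and 26 below, with 2 at an unadjusted p below 0.05. The median was -0.35 against -0.07 over all 7316 genes, of which 41.2% were above 0 and 1.39% had a p below 0.05. Without joint replicate 1 the list's median was -0.22. In whole heads, fewer cells of a type and less RNA per cell cannot be told apart, for this list and those that follow.

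Antimicrobial peptides are secreted by the fat body of the head and blood cells under the Toll and Imd pathways. Drs, the antifungal peptide drosomycin, had 11.76, 13.38 and 12.24 in joint-exposure heads, 14.70, 13.38 and 14.78 in nicotine heads, 13.30 and 13.57 in paraquat heads, and 13.68, 12.94 and 12.75 in plain-food heads. The joint-exposure and nicotine arrays met at 13.38, the value of replicate 2 in each, and paraquat and plain-food arrays overlapped. The interaction of Drs was -2.14 (-3.77 to -0.51, unadjusted p = 0.0156), and -1.79 without joint replicate 1. Of 15 measured peptides, 2 had an interaction above 0 and 13 below, with a median of -0.51, or -0.26 without joint replicate 1. Mtk, or metchnikowin, was at -1.86 (-4.27 to 0.55) and the Bomanin gene BomT2 at -0.66 (-1.34 to 0.03). Serpins, the protease inhibitors that restrain the Toll and melanization cascades, had 1 of 13 above 0 and a median of -0.46. For serpins joint replicate 1 was the low array, with a mean level of 9.30 against 10.47 and 10.28 on the other joint arrays and 10.05 to 10.60 on the 8 remaining arrays. Without it the serpin median was -0.12. Immune recognition and signalling genes had 9 of 29 above 0 and a median of -0.13, or -0.03 without joint replicate 1. Their member with a p below 0.05 was spirit, a serine protease upstream of Toll. It had 8.30, 8.12 and 8.24 in joint-exposure heads, 7.75, 7.18 and 6.96 in nicotine heads, 7.70 and 7.67 in paraquat heads, and 7.36, 7.66 and 7.55 in plain-food heads, an interaction of 0.76 (0.06 to 1.46). The gene spirit was higher on each joint-exposure array than on the other 8 arrays. That order, all joint-exposure arrays on top, occurred in 59 probe sets (0.648%), and all of them at the bottom in 106 (1.16%).

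Genes of the digestive tract had the highest median interaction of the 50 lists over the genes tested. Of 53 listed midgut genes, most of them proteases, maltases and lysozymes, 41 had a probe set on the array and 20 passed the filter on low values. Of the 20, 17 were above 0, with 15 beyond 1 in size and a median of 4.34. The filter shaped these counts, because 4 of the 20 would not have passed without their values on joint replicates 1 and 2. The 16 that also passed on the 9 other arrays had 13 above 0 and a median of 4.50. Over all 41, filtered or not, 30 were above 0, 18 were beyond 1 in size and the median was 0.27, with 21 genes that did not pass at a median of 0.0045. The median paraquat difference was 3.81 with nicotine and -0.17 without. The mean level of the 20 genes was 11.25, 10.13 and 7.76 on the joint-exposure arrays, 7.04, 4.98 and 7.76 on the nicotine arrays, 5.81 and 6.36 on the paraquat arrays, and 7.10, 5.32 and 7.19 on the plain-food arrays. Joint replicates 1 and 2 stood above the rest, and joint replicate 3 was level with nicotine replicate 3. Among the 16 genes that passed on the 9 other arrays, joint replicates 1 and 2 were both above those 9 in 9 genes, an order found in 83 of the 8992 probe sets that passed there (0.923%). The protease gene Jon99Ci was 1 of the 4 genes that passed only through joint replicates 1 and 2, so its split is not separate support. Jon99Ci had 11.08, 10.58 and 2.41 in joint-exposure heads, 2.12, 2.11 and 2.54 in nicotine heads, 2.50 and 2.31 in paraquat heads, and 2.41, 2.11 and 3.20 in plain-food heads. Its interaction was 5.93 (-0.28 to 12.14). Mal-A1, a maltase that splits dietary sugars, was the member with the smallest p. It had 15.05, 12.72 and 10.98 in joint-exposure heads, 9.23, 7.91 and 10.55 in nicotine heads, 9.31 and 8.89 in paraquat heads, and 9.22, 8.39 and 8.47 in plain-food heads. Its interaction was 3.28 (0.11 to 6.44, unadjusted p = 0.0437), and 2.21 without joint replicate 1. The median of the list was 3.33 without joint replicate 1 and 2.88 to 5.22 over the arrays left out in turn.

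**Figure D3:**
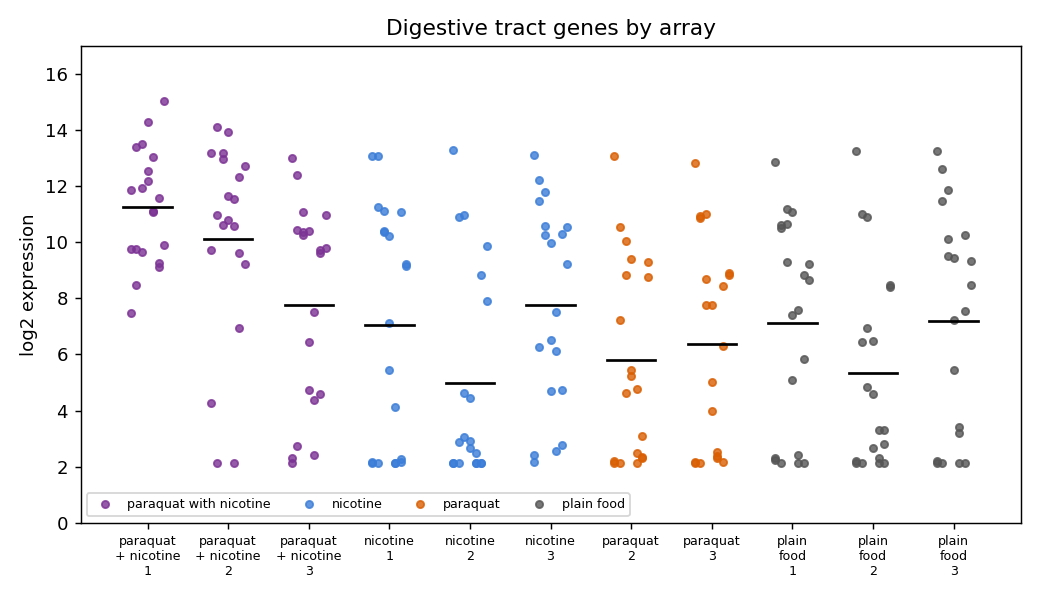
Log2 expression (y axis) of the 20 measured digestive tract genes on each of the 11 arrays (x axis), with the mean of the 20 as a bar. The mean was 11.25 and 10.13 on joint-exposure replicates 1 and 2, and 4.98 to 7.76 on the 9 other arrays. Of the 20, 4 passed the filter on low values only through joint-exposure replicates 1 and 2, which favours this gap.

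Several of the positive genes of smallest p shared the order of the digestive genes across the joint-exposure arrays. MtnC, a metallothionein that binds copper and other metals, had 9.76, 8.48 and 6.36 in joint-exposure heads, 3.46, 3.64 and 5.65 in nicotine heads, 2.39 and 3.64 in paraquat heads, and 3.67, 4.50 and 2.50 in plain-food heads. Its 3 joint-exposure arrays were above the other 8, and its interaction was 4.49 (1.42 to 7.57, unadjusted p = 0.0089, adjusted p = 0.9997). With every value under log2 4 set to 4 the interaction was 3.82, and without joint replicate 1 it was 3.71. MtnD, a metallothionein that rose with paraquat averaged over nicotine (adjusted p = 0.011), differed by 3.46 with nicotine and 2.57 without. Mesh, a protein of the smooth septate junctions of the midgut, had 8.01, 7.49 and 6.91 in joint-exposure heads, 6.29, 5.87 and 6.29 in nicotine heads, 5.38 and 6.29 in paraquat heads, and 6.02, 5.68 and 6.69 in plain-food heads. The interaction of mesh was 1.61 (0.39 to 2.84). CG12780 was at 3.85 (0.83 to 6.87), CG5096 at 3.51 (0.97 to 6.04) and CG18480 at 2.34 (0.27 to 4.40), each with joint replicate 1 highest of the 11 arrays and joint replicate 2 next. CG5096 reached log2 4 only on the joint-exposure arrays. It was tested only through the group where it was high, so its value is not support for an interaction. Among the 33 positive probe sets with p below 0.05, joint replicate 1 was the highest of the 11 arrays in 20 (60.6%), against 18.0% of all probe sets tested. Picking positive interactions itself favours high joint-exposure arrays, so these shares are not a like comparison. Without joint replicate 1, 18 of the 33 kept a p below 0.05. Whether the digestive transcripts and these genes moved through the same array differences was not tested.

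Other positive genes of smallest p did not follow joint replicate 1. Utx, which removes methyl groups from lysine 27 of histone H3, had 8.01, 7.89 and 8.26 in joint-exposure heads, 7.79, 7.75 and 7.61 in nicotine heads, 7.79 and 7.65 in paraquat heads, and 8.35, 8.21 and 8.11 in plain-food heads. Joint-exposure heads were above nicotine heads and paraquat heads below plain-food heads, with no overlap in either pair. The interaction of Utx was 0.84 (0.32 to 1.36, unadjusted p = 0.0052), and 0.86 without joint replicate 1. Ip6k, an inositol hexakisphosphate kinase, was at 0.79 (0.12 to 1.46), and bbg, a PDZ protein of epithelial junctions, at 0.68 (0.10 to 1.26). The growth repressor gene cic was at 0.65 (0.05 to 1.25) and the piRNA factor gene squ at 0.84 (0.09 to 1.59). For bbg, Ip6k and squ the plain-food arrays were the high group, with means of 9.66, 8.16 and 6.70, against 9.18, 7.42 and 6.00 in joint-exposure heads.

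**Figure D4:**
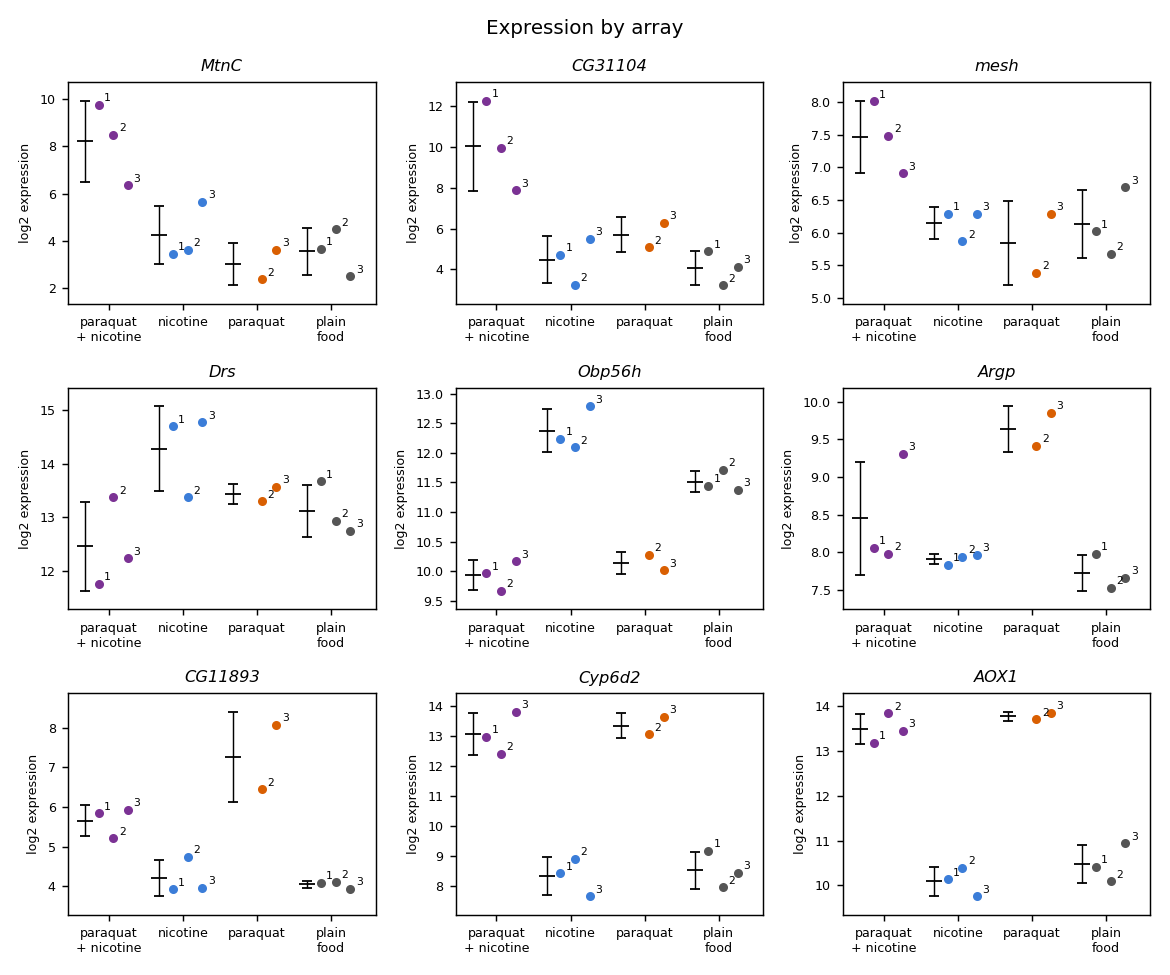
Log2 expression (y axis) of 9 named genes on each array, with the replicate number beside each point and the group mean with its SD to the left. MtnC, CG31104 and mesh were highest in joint replicate 1, Obp56h was lower in both paraquat-fed groups, and Cyp6d2 and AOX1 were higher in both paraquat-fed groups by about the same amount.

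The ecdysteroid kinase-like family held members on both sides. Of 31 measured, 13 had an interaction above 0 and 18 below, with a median of -0.06, and 4 had a p below 0.05. CG31104 had 12.24, 9.94 and 7.87 in joint-exposure heads, 4.72, 3.24 and 5.49 in nicotine heads, 5.09 and 6.29 in paraquat heads, and 4.88, 3.22 and 4.11 in plain-food heads, an interaction of 3.92 (0.52 to 7.32), or 2.81 without joint replicate 1. CG11878 was at 2.63 (0.62 to 4.64). Its joint-exposure arrays read 6.94, 4.28 and 4.45, and the other 8 lay at or below 2.997. CG11878 was therefore tested only through the joint-exposure arrays, and its place among the 4 is not support for an interaction. With values of CG11878 under log2 4 set to 4 the interaction was 1.23 (unadjusted p = 0.184). CG11893 had 5.84, 5.21 and 5.93 in joint-exposure heads, 3.92, 4.74 and 3.97 in nicotine heads, 6.45 and 8.07 in paraquat heads, and 4.09, 4.11 and 3.94 in plain-food heads. It rose by 3.21 ± 0.45 without nicotine (limma adjusted p = 0.0304) and differed by 1.45 ± 0.40 with nicotine (0.185), an interaction of -1.77 (-3.11 to -0.42). Its interaction was -0.96 without paraquat replicate 3 and -2.57 without paraquat replicate 2. CG13659, named after its values were seen, was the other member with a negative interaction of p below 0.05, at -1.49 (-2.94 to -0.04).

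Median interactions of P450, glutathione S-transferase, UDP-glycosyltransferase and antioxidant genes were -0.09 to -0.18, against -0.07 over all genes. Carboxylesterases had 7 of 13 above 0 and a median of 0.02, and ABC transporters 10 of 22 and -0.03. Aldo-keto reductases and aldehyde oxidases had 5 of 11 above 0 and a median of -0.02. Cytochrome P450 genes had 20 of 61 above 0 and a median of -0.09, glutathione S-transferases 7 of 31 and -0.15, and UDP-glycosyltransferases 3 of 16 and -0.15. Without joint replicate 1 these medians were -0.00038, -0.02 and -0.0021. Cyp308a1 was the P450 of smallest p, at -1.19 (-2.04 to -0.35), on arrays where it did not exceed 4.31. With values of Cyp308a1 under log2 4 set to 4 it was -0.21 (unadjusted p = 0.315). Jhedup, a duplicate of juvenile hormone esterase, was at -0.87 (-1.66 to -0.07), and the ABC transporter gene Atet at -0.82 (-1.49 to -0.15). GstD1, the glutathione transferase often used as an oxidative stress reporter, averaged 14.34 ± 0.40 in joint-exposure heads, 13.62 ± 0.08 in nicotine heads, 14.44 ± 0.32 in paraquat heads and 13.81 ± 0.24 in plain-food heads (SD). Its interaction was 0.09 (-0.68 to 0.87). Of 24 genes of superoxide, peroxide and glutathione defence, 8 were above 0, with a median of -0.18 and none at p below 0.05. Catalase, or Cat, was at -0.36 (-0.97 to 0.25) and the mitochondrial superoxide dismutase Sod2 at -0.32 (-1.14 to 0.49), or -0.08 without joint replicate 1.

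Genes of protein turnover, translation and mitochondria had interactions that were mostly below 0. Of 27 proteasome genes 2 were above 0, with a median of -0.39. Their median paraquat difference was 0.20 with nicotine and 0.54 without. The mean level of the 27 was 10.66, 11.24 and 11.43 on the joint-exposure arrays, 10.86, 10.81 and 10.99 on the nicotine arrays, 11.40 and 11.74 on the paraquat arrays, and 10.84, 10.83 and 11.16 on the plain-food arrays. Joint replicate 1 was the lowest of the 11, and without it the median interaction was -0.14. Rpt3R, related to an ATPase of the proteasome cap, had 2.82, 2.32 and 4.62 in joint-exposure heads, 4.88 and 5.47 in paraquat heads, and at most 2.32 in nicotine and plain-food heads, an interaction of -1.95 (-3.58 to -0.32), or -0.97 with values of Rpt3R under log2 4 set to 4. Rpt3R reached log2 4 only on the paraquat arrays and joint replicate 3, so it was tested only through them. Prosalpha6 and Prosbeta4, core subunits that rose with paraquat averaged over nicotine (adjusted p = 0.017 and 0.038), were at -0.39 and -0.53. Mitochondrial ribosomal protein genes had 5 of 71 above 0 and a median of -0.36. Their mean level was 9.36 on joint replicate 1, 10.29 and 10.23 on the other joint arrays, and 10.01 to 10.55 on the 8 remaining arrays. Without joint replicate 1 the median was -0.13. The member of smallest p, mRpL21, was at -1.35, and at -0.87 without that array. Oxidative phosphorylation genes had 7 of 58 above 0 (median -0.16), and cytosolic ribosomal protein genes 3 of 35 (median -0.16). Without joint replicate 1 these medians were -0.05 and -0.06. The part of joint replicate 1 in these shifts is given by the values without it, and its cause was not tested.

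Ribosome biogenesis genes kept most of their shift without that array. Of 20 measured, 4 were above 0, with a median of -0.35, and -0.31 without joint replicate 1. The median paraquat difference was 0.06 with nicotine and 0.46 without. Fib, or fibrillarin, which methylates ribosomal RNA, had 9.18, 9.73 and 9.87 in joint-exposure heads, 9.92, 9.20 and 10.19 in nicotine heads, 10.31 and 10.47 in paraquat heads, and 9.37, 9.63 and 9.77 in plain-food heads. Both paraquat arrays were above the other 9, and the interaction of Fib was -0.97 (-1.91 to -0.04). Nop10, of the complex that converts uridine to pseudouridine in ribosomal RNA, was at -0.65 (-1.16 to -0.13). The list was at -0.13 without paraquat replicate 3 and -0.50 without paraquat replicate 2, so its size depended on which of the 2 paraquat arrays was kept.

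Other negative genes of smallest p were mixed in function. Art7, an arginine methyltransferase, had 8.62, 8.44 and 8.75 in joint-exposure heads, 8.32, 8.19 and 8.38 in nicotine heads, 8.87 and 8.87 in paraquat heads, and 7.63, 8.01 and 7.70 in plain-food heads. It rose by 1.09 ± 0.18 without nicotine (limma adjusted p = 0.0473) and differed by 0.31 ± 0.16 with nicotine (0.521), and the interaction was -0.78 (-1.32 to -0.25, unadjusted p = 0.0085, adjusted p = 0.9997). The groups without paraquat also stood apart, since each nicotine array was above each plain-food array. Argp had 8.06, 7.99 and 9.31 in joint-exposure heads, 7.84, 7.94 and 7.97 in nicotine heads, 9.42 and 9.85 in paraquat heads, and 7.99, 7.53 and 7.66 in plain-food heads, an interaction of -1.37 (-2.48 to -0.27). Joint replicate 3 was near the paraquat arrays and joint replicates 1 and 2 near the arrays without paraquat. CG31125 was at -1.08 (-1.71 to -0.46, unadjusted p = 0.0033), the smallest p among the negative genes. It had 6.46, 6.46 and 7.04 in joint-exposure heads, 7.63, 7.48 and 7.62 in nicotine heads, 7.03 and 7.04 in paraquat heads, and 7.04, 6.75 and 6.82 in plain-food heads, where nicotine heads were the high group. CG15629 was at -1.89, CG12379 at -1.30, CG13877 at -0.91 and MED7, a subunit of the Mediator complex, at -1.09. Of these CG15629 and MED7 moved most without joint replicate 1, to -1.47 and -0.74. Among all 79 negative probe sets with p below 0.05, joint replicate 1 was the lowest of the 11 arrays in 31 (39.2%), against 25.9% of all probe sets tested, and 47 of the 79 kept a p below 0.05 without it. Picking negative interactions itself favours low joint-exposure arrays, so these shares are not a like comparison. In 60 of the 79 the paraquat difference had opposite signs with and without nicotine, and in 21 of the 33 positive ones. Over all 9104 probe sets the sign was shared by 66.8%. Picking a large gap between the paraquat differences itself favours opposite signs, so these counts are a description and show no reversal of the response.

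In DNA repair and replication, the response to paraquat was above 0 in the median on both sides. Over 24 repair and nucleotide supply genes the median difference was 0.77 with nicotine and 1.08 without, and the median interaction was -0.11, with 8 above 0. Irbp, the Ku70 subunit that binds broken DNA ends and that rose averaged over nicotine (adjusted p = 0.0071), differed by 1.96 with nicotine and 2.55 without. Fen1, the flap endonuclease, had 3.75, 4.45 and 3.92 in joint-exposure heads, 4.29, 3.98 and 3.64 in nicotine heads, 5.73 and 5.21 in paraquat heads, and 3.61, 4.53 and 3.98 in plain-food heads. Its paraquat arrays were above the other 9, and the interaction was -1.36 (-2.36 to -0.37). Mcm6, of the replicative helicase, was at -0.82, and at -0.35 without paraquat replicate 3. The replication list of 11 genes had a median difference of 0.62 with nicotine and 0.47 without, and a median interaction of -0.15, which was -0.40 without joint replicate 1 and 0.15 without joint replicate 2.

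**Figure D5:**
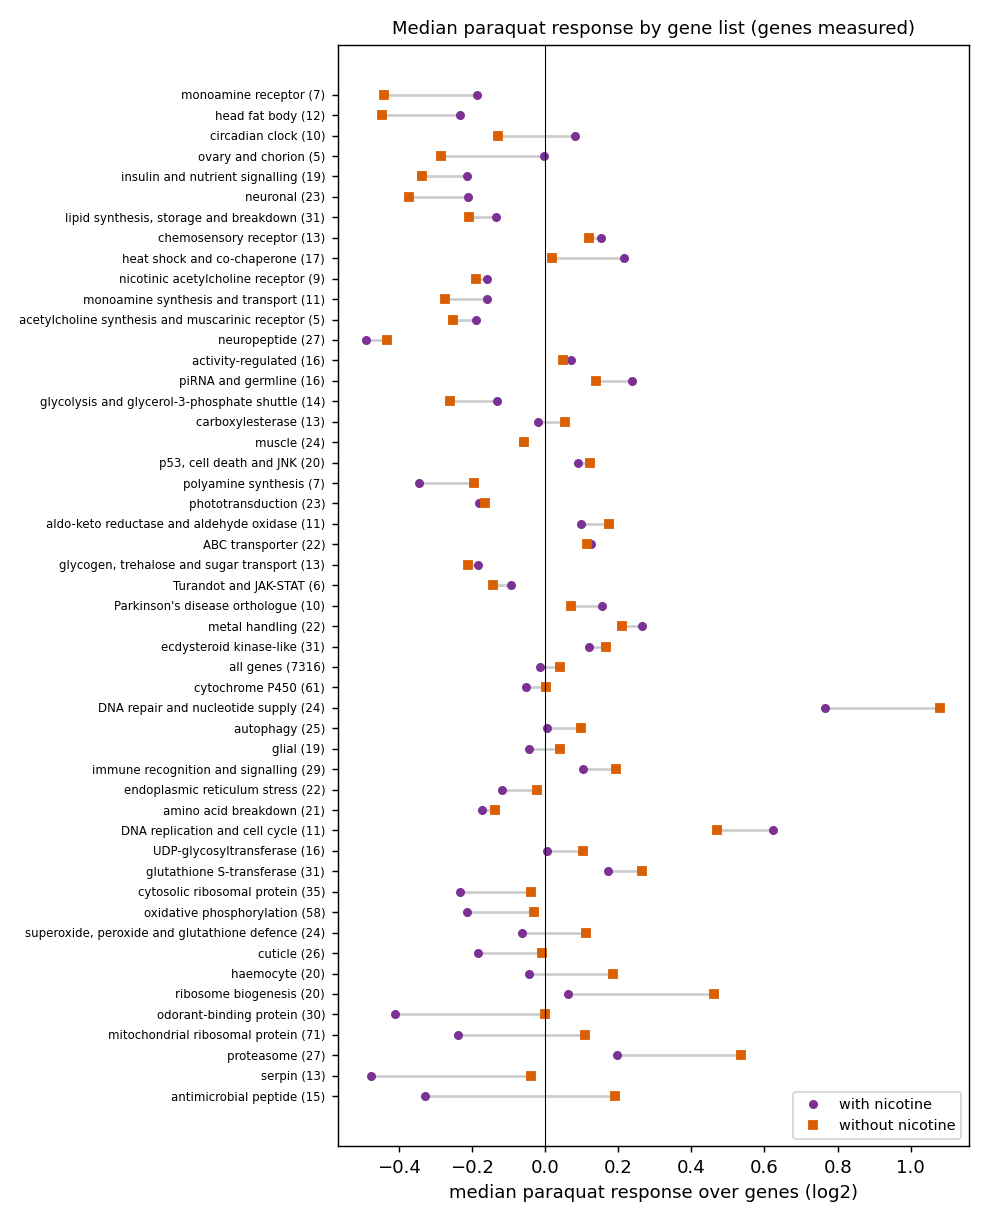
Median paraquat difference (log2, x axis) with nicotine (circles) and without nicotine (squares) over the measured genes of each list and over all 7316 genes, ordered by median interaction from the top. The digestive tract list (3.81 with nicotine, -0.17 without) is off this scale and is not drawn. The proteasome list lies at 0.20 with nicotine and 0.54 without, and the mitochondrial ribosomal list at -0.24 and 0.11.

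Genes of the nervous system, the site of nicotine's receptors, showed no called interaction and few values at a small p. Of 9 measured genes of the nicotinic receptor list 6 were above 0, the median was 0.08, and 0 had a p below 0.05. Without joint replicate 1 the median was -0.08, and it ran from -0.14 to 0.23 over the arrays left out in turn. Among the receptor subunits nAChRbeta3 was lowest, with 9.75, 10.61 and 10.52 in joint-exposure heads, 10.61, 10.64 and 11.13 in nicotine heads, 10.81 and 10.96 in paraquat heads, and 10.64, 10.58 and 11.17 in plain-food heads. Joint replicate 1 was its lowest array, and the interaction was -0.59 (-1.51 to 0.33), or -0.31 without that array. The subunit nAChRalpha7 was at 0.27 (-1.20 to 1.73), nAChRbeta2 at 0.16 (-1.01 to 1.34) and nAChRalpha2 at -0.12 (-0.94 to 0.71). For nAChRalpha4 the value was 0.08 (-1.02 to 1.19) and for nAChRalpha3 -0.03 (-0.65 to 0.58). The probe sets of nAChRbeta1 gave 0.07 (-0.62 to 0.77) and 0.30 (-0.42 to 1.01). Pale, or ple, the tyrosine hydroxylase that limits dopamine synthesis, averaged 8.82 ± 0.11 in joint-exposure heads, 9.09 ± 0.27 in nicotine heads, 8.46 ± 0.11 in paraquat heads and 8.79 ± 0.34 in plain-food heads (SD). The interaction of ple was 0.07 (-0.63 to 0.77), and that of Ddc, which makes dopamine and serotonin from their precursors, 0.02 (-0.66 to 0.71). Pink1, a mitochondrial kinase gene orthologous to a Parkinson's disease gene, was at -0.20 (-0.97 to 0.56). Monoamine synthesis and transport genes had 9 of 11 above 0 with a median of 0.07, and monoamine receptors 6 of 7 with a median of 0.34, or 0.09 without joint replicate 1. Neuronal markers had 16 of 23 above 0 (median 0.11), and phototransduction genes 11 of 23 (median -0.02).

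The chemosensory receptor Ir75a, an ionotropic receptor of the antenna, was at -0.92 (-1.80 to -0.03), where the plain-food arrays were the low group at 10.39, 10.06 and 9.51 and the other 8 lay between 10.41 and 11.07. Edg91, a cuticle protein, was at -2.93 (-5.56 to -0.29). It had 5.92, 4.93 and 5.15 in joint-exposure heads, 9.35, 6.45 and 9.03 in nicotine heads, 5.92 and 5.92 in paraquat heads, and 5.92, 7.14 and 4.75 in plain-food heads, so nicotine replicates 1 and 3 were the arrays that stood out. Metabolic lists were close to 0. Lipid genes had 21 of 31 above 0 with a median of 0.10, and insulin and nutrient signalling genes 12 of 19 with 0.12. Dgat2, a triglyceride synthesis enzyme that rose averaged over nicotine (adjusted p = 0.0026), differed by 3.71 with nicotine and 4.46 without, an interaction of -0.75 (-2.87 to 1.37). Heat shock and co-chaperone genes had 12 of 17 above 0 with a median of 0.08, polyamine synthesis genes 3 of 7 with -0.01, and head fat body genes 8 of 12 with 0.15.

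Read from the side of nicotine, the same data gave no called transcript either. Nicotine against no nicotine called 0 probe sets in paraquat-fed flies, with 275 at an unadjusted p below 0.05 (3.02%), of which 103 were higher (1.13%) and 172 lower (1.89%) in joint-exposure heads (limma). In flies without paraquat it called 0, with 179 at an unadjusted p below 0.05 (1.97%), of which 104 were higher (1.14%) and 75 lower (0.824%) in nicotine heads.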

How the data were processed

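Heads were measured on 11 Affymetrix arrays after amplification of RNA from its 3' end with a NuGEN kit, per the labels' protocols. The deposited values are log2 expression per probe set made by the authors with GCRMA, which corrects background, normalizes quantiles and summarizes probes, per the submitters' processing notes (version and settings not given in the sources used here). Values ran from 2.11 to 16.2 and were used as deposited, and 0 pairs of arrays were identical. Quantile normalization removes shifts shared by most transcripts. Array counts give no depth, so the number of arrays and the spread between them set the precision.

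A limma model (limma 3.58.1, R 4.3.3, lmFit and eBayes with default prior, residual degrees of freedom 7, prior 2.48) gave each of the 4 groups a mean over 9104 probe sets, with no block. Tests were two-sided, adjusted by Benjamini-Hochberg, and called at 0.05. Intervals are 95% and unadjusted. The procedure was tested on simulated data. Of the 9104, 7800 named 1 gene, 228 several and 1076 none; symbols were updated through the RefSeq Release 6 gene table for 7776, and 24 were kept. The probe set of highest mean stood for each of 7316 genes. The sources used here name no genome build for the arrays.

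Genes named were the 12 positive and 12 negative interactions of smallest p with a group mean of at least log2 6, the 2 of smallest p below 0.05 in each of 50 lists, 6 rises and 6 falls of smallest p for paraquat averaged over nicotine, and ple, Ddc, Sod2, Cat, GstD1, Pink1 and the nicotinic receptor subunits. Other genes named were chosen after their values were seen, as were head markers. In the lists 26 names matched no gene. The members, lists and rule were chosen with earlier results of these data known. Alternatives were no filter, a filter at log2 6, values under log2 4 set to 4, a variance trend with a robust prior, centring, array weights, a replicate block, a 3' minus 5' covariate, 1 probe set per gene and each array left out; 2 that leave out a pair of arrays, and other filters for the digestive list, were chosen after seeing the data.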

Additional observations from a re-analysis of the deposited data

How the results depend on the processing

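The interaction count was 0 under the filter at log2 6, the floor at log2 4, the trended robust prior, centring, array weights, the replicate block, the 3' minus 5' covariate and 1 probe set per gene. Without the low-value filter it was 3 (CG14691, SkpB and Uros1, none among the 9104, with interactions of -0.35 to -0.10), where paraquat called 9 with nicotine, 7 without and 137 averaged, and nicotine called 4 with paraquat. Leaving out each array in turn gave 0 to 21 for the interaction, 12 to 242 for paraquat with nicotine, 0 to 103 for paraquat without nicotine, 53 to 586 for paraquat averaged, 0 to 32 for nicotine with paraquat (32 without joint replicate 3) and 0 to 2 for nicotine without paraquat. Where a group was left with 1 array, that array was assumed to vary like the others. Array weights, which were 0.23 for joint replicate 1, 0.28 for plain-food replicate 3 and 0.36 for nicotine replicate 3, raised the paraquat calls to 312 with nicotine, 765 without and 1627 averaged, and nicotine without paraquat to 20, with 472 interactions (5.18%) at an unadjusted p below 0.05. Paraquat without nicotine called 62 with the trended robust prior and 17 with the 3' minus 5' covariate. Same-numbered arrays of different groups deviated together at correlations of -0.07 to 0.50 over 15 pairs (median 0.16, 9 over 0.1), and differently numbered arrays at -0.50 to 0.33 over 30 pairs (median -0.09, 5 over 0.1). The numbers were not taken to pair the samples, because not every same-numbered pair was over 0.1 and joint replicate 2 correlated best with plain-food replicate 3 (0.31). That choice was a judgement, since same-numbered pairs had the higher median. The 2 paraquat arrays deviate from their mean as mirror images, so their pairs are not separate values. The replicate block gave 0 interaction calls and 137 at an unadjusted p below 0.05, and called 9 for paraquat without nicotine. Under it ple was at -0.019, Ddc at -0.045, nAChRbeta1 at -0.038 and nAChRalpha4 at -0.048. Of the 2 alternatives that leave out a pair of arrays, chosen after seeing the data, leaving out joint replicate 1 and plain-food replicate 3 called 26 for paraquat with nicotine, 2 without, and 1 for nicotine with paraquat. Leaving out joint replicates 1 and 2 called 1 interaction (CG18404), 125 for paraquat with nicotine, 147 without, 592 averaged and 2 for nicotine with paraquat.

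Interactions of named genes turned sign only where the value was uncalled and lay within 0.30 of 0. Centring moved the median paraquat difference without nicotine to -0.10 from 0.012 and the median interaction to 0.04 from -0.05, and put Alr at 0.070 and nAChRalpha3 at 0.062. Array weights put AOX1 at -0.19, CG13833 at 0.0018, ple at -0.028, Ddc at -0.27, nAChRalpha7 at -0.44, nAChRbeta2 at -0.085, nAChRbeta1 at -0.034 and nAChRalpha4 at -0.15. The covariate put AOX1 at -0.049, Cyp6d2 at 0.034, Alr at 0.048, Odc2 at -0.015, Ddc at -0.022 and nAChRalpha3 at 0.0027. Without joint replicate 1 and plain-food replicate 3, Alr was at 0.051, Ddc at -0.059, nAChRbeta2 at -0.031 and nAChRalpha3 at 0.18. Without joint replicates 1 and 2, Cyp6d2 was at 0.66, Alr at 0.18, Odc2 at -0.47, ple at -0.014, Ddc at -0.19, nAChRalpha7 at -0.18, nAChRbeta2 at -0.27, nAChRbeta1 at -0.12 and nAChRalpha3 at 0.098. Over single arrays left out, AOX1 ran from -0.13 to 0.30, Cyp6d2 from -0.47 to 0.23, Alr from -0.12 to 0.084, Odc2 from -0.37 to 0.41, Hpd from -0.42 to 0.15, Cyp313a1 from -0.37 to 0.64, nompA from -0.32 to 0.64, CG13833 from -0.30 to 0.13 and GstD1 from -0.13 to 0.32. In the same runs ple ran from -0.11 to 0.23, Ddc from -0.19 to 0.14, nAChRbeta1 from -0.10 to 0.23, nAChRbeta2 from -0.17 to 0.44, nAChRalpha2 from -0.34 to 0.10, nAChRalpha3 from -0.23 to 0.17, nAChRalpha4 from -0.41 to 0.57 and nAChRalpha7 from -0.22 to 0.68. Of the genes named by rule Rpt3R passed the threshold in an alternative, at -2.64 without joint replicate 3 (limma adjusted p = 0.013). Rpt3R reached log2 4 only on the paraquat arrays and joint replicate 3. Without that replicate only the paraquat arrays were above that level, so the call is not support for an interaction. Jon99Ci, Jon25Bi, CG9672, mex1, PGRP-SC2 and CG12728, named after their values were seen, were also called without joint replicate 3. All of these but PGRP-SC2 reached log2 4 only on joint replicates 1 and 2 or, for CG12728, only on the paraquat arrays. Of the 50 list medians, 11 changed sign under centring and 12 without joint replicate 1. The digestive tract, proteasome, mitochondrial ribosomal, serpin, antimicrobial, odorant-binding and ribosome biogenesis medians kept theirs over single arrays left out. The causes of these differences were not tested.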

Other observations

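The 21 probe sets called for the interaction without joint replicate 3 were mostly silent in every group other than the joint exposure. None of them was called with all arrays kept. Most of those above 0, CG9672 and mex1 among them, reached log2 4 only on joint replicates 1 and 2. They were tested only because those arrays were high, so the contrast is not support for an interaction. Of the 21, 18 were above 0, and there joint replicates 1 and 2 were high while joint replicate 3 lay near the other arrays. CG9672 read 9.19, 9.65 and 2.11 in joint-exposure heads and at most 2.12 on the 8 other arrays. The midgut gene mex1 read 8.23, 7.21 and 3.46 in joint-exposure heads and at most 3.78 on the others, and PGRP-SC2, a peptidoglycan-degrading immune amidase, 7.03, 7.46 and 4.61 in joint-exposure heads and at most 5.20 on the others. The 3 below 0 had another order, with the paraquat arrays and joint replicate 3 high together. CG12728 read 2.14, 2.14 and 3.72 in joint-exposure heads, 2.14, 2.13 and 2.13 in nicotine heads, 4.22 and 4.53 in paraquat heads, and 2.13, 2.14 and 2.14 in plain-food heads. Rpt3R had the same order. CG12728 reached log2 4 only on the paraquat arrays, and Rpt3R only there and on joint replicate 3. Both were tested only through arrays where they were high, so their calls are not support for an interaction. The genes of this paragraph other than Rpt3R were named after their values were seen.

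The 4 probe sets of Gpdh1, glycerol-3-phosphate dehydrogenase, gave interactions of 0.36 to 1.42. On the probe set at 1.42 (unadjusted p = 0.0200), Gpdh1 read 9.82, 10.78 and 9.51 in joint-exposure heads, 11.23, 11.64 and 11.29 in nicotine heads, 9.41 and 8.95 in paraquat heads, and 11.50, 12.05 and 12.31 in plain-food heads. It was also named after its values were seen.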
